A study of Mus musculus with 4 samples.

Results

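Intergenic Zeb1 peaks outside retrotransposons numbered 881 of the 17435 peaks in the deposited list, or 5.05% (95% Wilson interval 4.74 to 5.39%). A peak was counted when the annotation in the list begins with Intergenic, the authors' label for peaks they placed in no gene or promoter, and when the more detailed annotation names no LINE, LTR or SINE element. Peaks on a CpG island, a stretch of sequence in which C, G and CG dinucleotides are frequent, stayed in and are given as a subgroup. The choice used annotation alone and no measured value. The 881 were 29.4% (27.8 to 31.0%) of the 2999 intergenic peaks in the list.

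The study mapped Zeb1 on chromatin of D3 cells, an established line of mouse embryonic stem cells, by precipitation with an antibody and sequencing. The cells grew without feeders in ground state (GS) medium, which keeps them pluripotent with PD0325901, a MEK inhibitor, at 1 µM, CHIR99021, a GSK-3 inhibitor, at 3 µM, and LIF at 20 ng/mL. Chromatin was fixed in 1% formaldehyde and sheared to fragments near 200 bp. There were 3 Zeb1 libraries, each made with 8 µg of antibody, and 1 input library made without antibody, which gives the background. All libraries came from the same line under the same medium, with no cells that lack Zeb1 and no second condition. Each peak in the list carries 3 averages made by the authors, and the list does not say which counts entered each. They are the treatment reads, from the Zeb1 libraries, the input reads, and the enrichment, which is the authors' ratio of the former to the latter after scaling for mapped reads. No value per library and no aligned depth is given, so no spread between replicates accompanies any value. Peaks are features of 1 list and not replicates, and each test describes that list. Chromatin was pooled from many cells, so binding in all cells and binding in a share of them cannot be told apart.

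Zeb1 is a transcription factor with a cluster of zinc fingers near each end, which bind E-boxes of the form CACCTG, and it represses many targets through CtBP and histone deacetylases. It is best known for silencing epithelial genes in the epithelial to mesenchymal transition, where Zeb1 and the miR-200 family repress each other. Sequence between genes can hold distant enhancers, starts of transcripts that a gene catalogue lacks, and CpG islands far from any annotated start.

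The members with the highest enrichment show how unlike one another these regions are. The central 300 bp of 4 of them follow, read from GRCm38.p6, the assembly of the list (mm10), on the forward strand. They are the peaks with the highest enrichment among all members and among CpG island members, and the most enriched ones assigned to Wnt4 and Bcor. Capitals would mark CACCTG or its reverse complement CAGGTG, and none of the 4 stretches holds either. Of the 10 most enriched members, 1 holds it in its central 300 bp, assigned to 1700030C10Rik. The share in 300 bp was not counted for all members. It was 18.2% in the central 200 bp and 39.5% in the central 500 bp. In the central 500 bp the Gm3264 member holds the E-box as well. Further from the centre, it also occurs within the peaks at Pcdh18, Pls3 and Bcor and in the stronger Erdr1 peak. The 10 are therefore not shown to differ from other members. The count of CG dinucleotides was 8 in the Pcdh18 stretch, 20 at Erdr1, 7 at Wnt4 and 23 at Bcor. The G+C content was 42.3%, 65.3%, 64.0% and 62.0% in the same order.
Pcdh18, chr3:49822526-49822825: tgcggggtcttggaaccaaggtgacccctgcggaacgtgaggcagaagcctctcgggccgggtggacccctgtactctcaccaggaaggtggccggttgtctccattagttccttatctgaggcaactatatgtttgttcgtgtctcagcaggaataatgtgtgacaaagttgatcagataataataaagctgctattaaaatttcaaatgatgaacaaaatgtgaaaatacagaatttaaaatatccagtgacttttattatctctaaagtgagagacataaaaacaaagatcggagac
Erdr1, chrY:90825751-90826050: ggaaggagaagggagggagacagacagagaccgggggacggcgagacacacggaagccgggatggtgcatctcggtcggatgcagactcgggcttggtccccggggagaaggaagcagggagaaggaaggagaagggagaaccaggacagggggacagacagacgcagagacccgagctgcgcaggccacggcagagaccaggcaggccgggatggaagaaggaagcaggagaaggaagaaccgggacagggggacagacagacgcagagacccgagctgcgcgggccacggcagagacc
Wnt4, chr4:137265726-137266025: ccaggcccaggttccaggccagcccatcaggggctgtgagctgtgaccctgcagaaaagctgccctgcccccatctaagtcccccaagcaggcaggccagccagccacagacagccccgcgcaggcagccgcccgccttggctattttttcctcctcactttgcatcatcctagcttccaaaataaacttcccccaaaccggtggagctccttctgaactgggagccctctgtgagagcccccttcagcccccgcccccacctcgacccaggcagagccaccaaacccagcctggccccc
Bcor, chrX:12006476-12006775: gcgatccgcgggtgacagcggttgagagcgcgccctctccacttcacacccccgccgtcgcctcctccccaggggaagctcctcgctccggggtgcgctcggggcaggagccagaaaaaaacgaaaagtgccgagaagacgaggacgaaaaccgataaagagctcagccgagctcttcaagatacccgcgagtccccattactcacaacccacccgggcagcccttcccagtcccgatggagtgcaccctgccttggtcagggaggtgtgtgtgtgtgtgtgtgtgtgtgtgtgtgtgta

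Some members carry the E-box close to their centre. The 60 bp around CACCTG, in capitals as CACCTG or CAGGTG, are shown for 10 members assigned to genes of the 5 gene lists described further on. They are the members of those lists whose E-box nearest the centre lies within 100 bp of it, chosen after their values were seen. In the Klf4 and Irx5 members the E-box lies at the peak centre itself, at a distance of 0 bp. A match is a description of the letters, and binding at the site itself was not measured.
Klf4, chr4:55480445-55480504: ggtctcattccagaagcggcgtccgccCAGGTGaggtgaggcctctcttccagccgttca
Gbx2, chr1:89941070-89941129: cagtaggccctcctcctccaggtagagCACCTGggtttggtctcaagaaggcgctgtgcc
Wnt7b, chr15:85625562-85625621: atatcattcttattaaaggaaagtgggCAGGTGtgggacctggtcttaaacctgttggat
Wnt7b, chr15:85615441-85615500: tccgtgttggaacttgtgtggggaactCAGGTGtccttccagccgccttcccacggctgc
Tbx4, chr11:85876522-85876581: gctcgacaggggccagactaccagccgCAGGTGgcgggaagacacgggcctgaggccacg
Hand2, chr8:57348506-57348565: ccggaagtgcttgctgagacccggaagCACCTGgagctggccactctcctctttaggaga
Nr2f2, chr7:70346158-70346217: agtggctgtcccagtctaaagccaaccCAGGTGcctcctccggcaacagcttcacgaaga
Irx5, chr8:92460470-92460529: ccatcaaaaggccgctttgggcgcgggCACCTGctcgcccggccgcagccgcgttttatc
Pax2, chr19:44720175-44720234: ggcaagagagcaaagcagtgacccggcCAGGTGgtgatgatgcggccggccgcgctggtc
Mir200b, chr4:156077828-156077887: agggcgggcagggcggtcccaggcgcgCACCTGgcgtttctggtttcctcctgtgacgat

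By the kind of sequence at the centre, 516 members (58.6%, Wilson interval 55.3 to 61.8%) lay in unannotated sequence and 296 (33.6%, 30.6 to 36.8%) on a CpG island. The remaining kinds were small. There were 19 members on simple repeats, 10 on fragments related to the large ribosomal RNA, 10 in a RefSeq transcript named by the detailed annotation, 9 on satellites, 7 on low complexity sequence, 7 on RMER1 repeats, 5 on DNA transposons and 2 on tRNA repeats. Of the satellite members, 4 were on GSAT_MM, the major satellite that fills the sequence around mouse centromeres. All 10 ribosomal members were on the repeat LSU-rRNA_Hsa. The groups outside unannotated sequence and CpG islands were therefore too small to carry more than a description.

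The label intergenic was checked against GENCODE M21, a larger gene catalogue than the one behind the list. It held for 589 members (66.9%, Wilson interval 63.7 to 69.9%), whose centre lay in no GENCODE gene and over 5 kb from every GENCODE transcription start site (TSS). A GENCODE gene overlapped 225 members (25.5%) by at least 1 bp and 152 by at least 50% of the peak. The overlapping genes were of the type protein-coding for 92 members, long intergenic non-coding RNA (lincRNA) for 61 and processed pseudogene for 43. The centre of 247 members (28%, 25.2 to 31.1%) was within 5 kb of a GENCODE TSS, and 72 (8.17%) were that close to a TSS of the curated RefSeq transcripts. Intergenic here is thus the label given by the list, and the centre of 162 members (18.4%) lay in a GENCODE gene. The 589 strictly intergenic members had a median enrichment of 5.92, against 5.95 for all members.

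A group of members was centred on or near transcript starts that the list does not use. The centre was within 500 bp of a GENCODE start in 134 members (15.2%, Wilson interval 13 to 17.7%), and 86 of these (64.2%) were CpG islands. The start was of a protein-coding gene in 56 of them, of a processed pseudogene in 39, of a lincRNA in 22 and of an unprocessed pseudogene in 6. The 56 at protein-coding starts, 43 of them CpG islands, had a median of 53.5 treatment reads, and the 39 at processed pseudogenes, 16 of them CpG islands, had 30. An example is a member assigned to Nr2f2, a nuclear receptor of veins and atria, whose centre lay 440 bp upstream of the start of the lincRNA Gm44946. Transcription from these starts was not analysed here, and the share within 500 bp of a start is not given for other classes of peaks.

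The median member had an enrichment of 5.95 (95% interval of the median 5.70 to 6.15), with quartiles of 4.51 and 7.95 and a range from 2.1 to 45.65. It held 38 treatment reads (quartiles 29.5 and 50.2) and 14 input reads (quartiles 10 and 18.5). The median length was 1650 bp, in a range from 1050 to 8150 bp, and the 881 covered 1644350 bp. Longer members held more reads, with a Spearman's rho of 0.619 between length and treatment reads and of 0.0675 between length and enrichment (n = 881 members, across regions of 1 list). An enrichment of at least 10 was reached by 98 members (11.1%, Wilson interval 9.21 to 13.4%), against 14.7% of all peaks. That share was 10.2% in intron peaks outside retrotransposons, 23.9% in intergenic peaks on retrotransposons and 13.4% in promoter peaks. A high enrichment was therefore not a mark of the members as a group.

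To place the members among other peaks, each class was described by the share of peaks at or above 6.5, the median enrichment of the whole list. Among members it was 41.0% (361 of 881), and among the 11225 promoter peaks 54.1%, a difference of -13.1 percentage points (95% interval -16.4 to -9.7; odds ratio 0.589). The adjusted p of that comparison was 1.29e-13 by a two-sided Fisher's exact test, with Benjamini-Hochberg adjustment over the 12 class comparisons made, of which 8 had an adjusted p under 0.05. When only peaks with an enrichment of at least 5 were taken, and the level was set by them, the odds ratio was 0.881 (adjusted exact p = 0.165). Since that filter acts on the value compared, the smaller gap supports no statement on the classes. Against the 1062 intron peaks outside retrotransposons, with 39.9%, the difference was 1.05 points (-3.32 to 5.43, adjusted exact p = 0.643). The direction turned to an odds ratio of 0.824 when only the members outside CpG islands were taken (adjusted exact p = 0.0863). On treatment reads per kb in place of enrichment, 36.7% of members and 16.1% of intron peaks reached the list's median (odds ratio 3.02, adjusted exact p = 7.32e-25). Reads per kb also depend on the length of a peak. Against the 2118 intergenic peaks on retrotransposons, with 42.6%, the difference was -1.66 points (-5.5 to 2.23, adjusted exact p = 0.455). It passed the threshold with odds ratios of 0.737 for members outside CpG islands (adjusted exact p = 0.00294) and 0.732 on treatment reads per kb (adjusted exact p = 0.00021). An enrichment of at least 5, a filter on the value compared, gave 0.362 (adjusted exact p = 5.47e-22). The direction turned, to an odds ratio of 1.13 (adjusted exact p = 0.191), among peaks with at least 5 input reads, a setting chosen after seeing the data. Members and intron peaks overlapped along most of the range, while peaks on retrotransposons spread further to both sides.

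**Figure D1:**
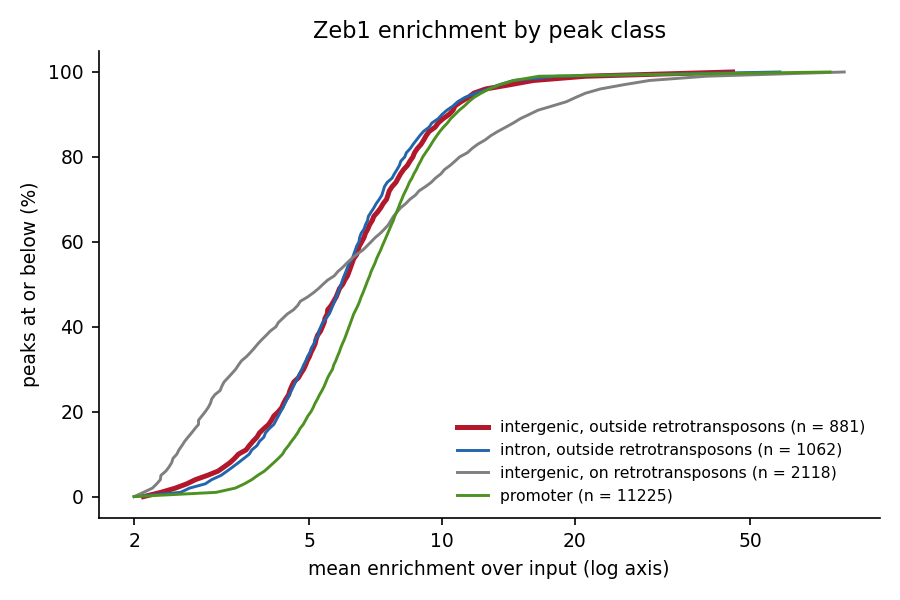
Share of peaks (%) at or below each mean enrichment over input (log axis) for the 881 members, 1062 intron peaks outside retrotransposons, 2118 intergenic peaks on retrotransposons and 11225 promoter peaks. The line of the members follows that of intron peaks, with medians of 5.95 and 5.9, and promoter peaks lie to the right with a median of 6.73.

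Members were short. A length of at least 1850 bp, the median of the list, was reached by 37.7% of members, 61.6% of intron peaks (odds ratio 0.377, adjusted exact p = 1.98e-25), 57.6% of promoter peaks (0.445, adjusted exact p = 2.35e-29) and 18.6% of retrotransposon peaks (2.64, adjusted exact p = 1.6e-26). Members therefore stood between the retrotransposon peaks and the other classes. Reads per kb depend on length as well as on reads. Per peak, members and intron peaks had medians of 38 and 38.8 treatment reads, with median lengths of 1650 and 2050 bp. The median member had 22.7 treatment reads and 7.81 input reads per kb, an intron peak 19.6 and 6.58, a retrotransposon peak 24.0 and 8.80, and a promoter peak 26.6 and 8.28.

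Values differed between members on and off CpG islands, with wide overlap and no test made. The 296 CpG island members had a median enrichment of 6.60 (quartiles 5.18 and 8.83), and the 585 others 5.50 (4.20 and 7.45). The level of 6.5 was reached by 52.0% of CpG island members (Wilson interval 46.4 to 57.7%) and by 35.4% of the others (31.6 to 39.3%). The gap came with more treatment reads: 26.6 per kb against 20.8 in the others. Input reads per kb were 8.46 and 7.59, so they were not lower on CpG islands. An enrichment of at least 10 was found in 14.9% of CpG island members, a share near the 14.7% of all peaks. The smaller kinds went both ways. The 9 satellite members had a median enrichment of 3.22 with 17.2 input reads per kb, and the 10 ribosomal repeat members had 8.33 with 6.88.

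**Figure D2:**
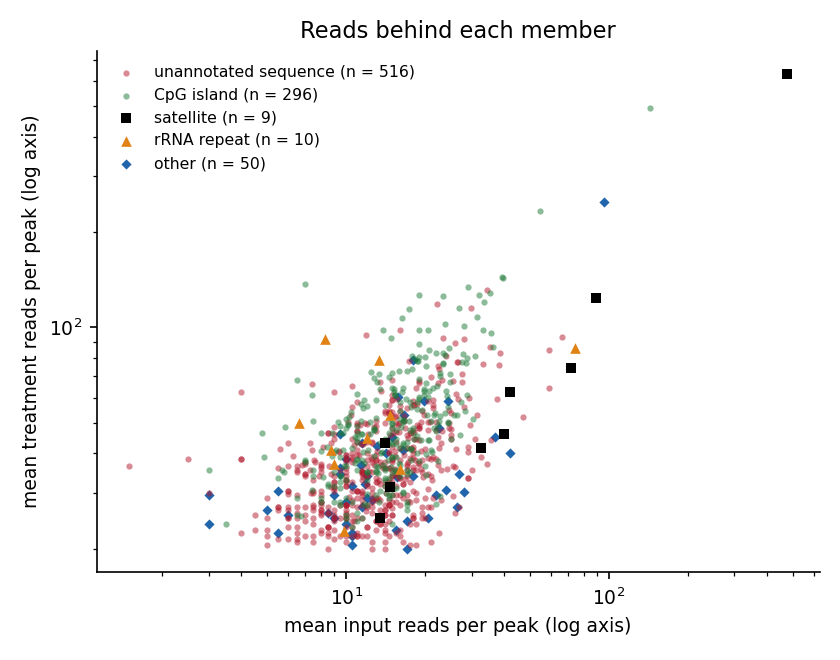
Mean treatment reads against mean input reads per peak for each of the 881 members (both axes log), coloured by the kind of sequence at the centre. Satellite members lie to the right, with a median of 39.8 input reads, and CpG island members reach more treatment reads than unannotated sequence, with medians of 46.5 and 35.

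Base composition ran along the same line. The central 500 bp of the median member had a G+C content of 59.8%, against 57.2% in intron peaks, 52.4% in retrotransposon peaks, 66% in promoter peaks and 62.8% in all peaks. Members were sorted by this value into 4 groups of 212 to 224 peaks. The median enrichment was 4.71 in the group with the least G+C (30.6 to 54.6%), then 5.35, then 6.75, and 6.92 in the group with the most (64.2 to 84.2%). An enrichment of at least 10 was found in 5.66%, 4.98%, 13.4% and 20.1% of the groups in the same order. CpG islands made up 5, 32, 76 and 183 members of the groups. Treatment reads per kb were 19.1 in the lowest group and 27.1 in the highest, with 8.00 and 8.09 input reads per kb. Across the 881 members, Spearman's rho between G+C and enrichment was 0.391 (Pearson's r 0.245), and between G+C and input reads per kb it was -0.013 (r -0.186). Enrichment ran against input reads per kb with a rho of -0.669, as a ratio with input in its denominator can. All points share the libraries, and the part that base composition has in the recovery of fragments was not tested.

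**Figure D3:**
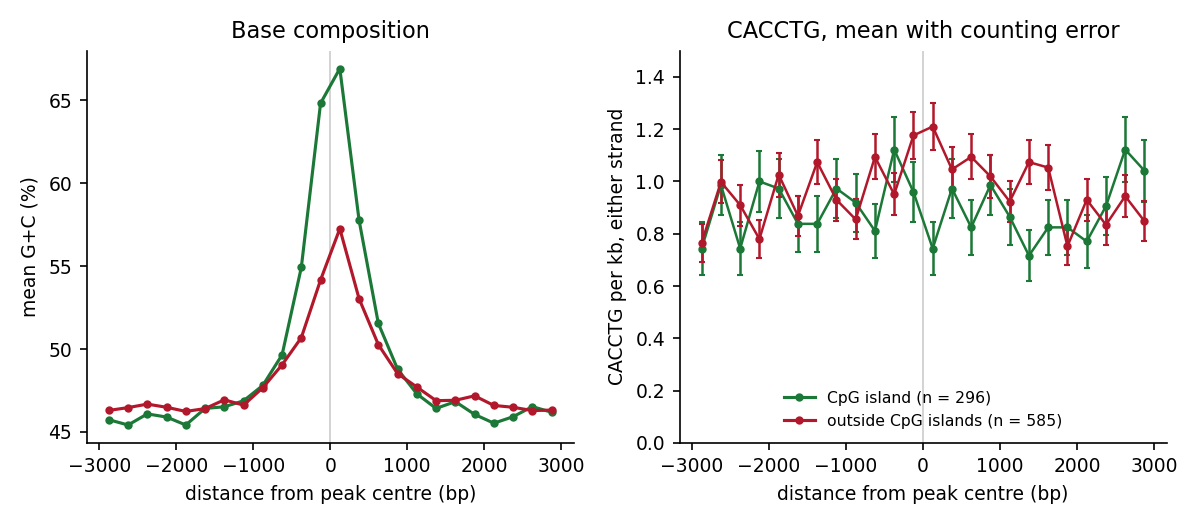
Mean G+C (%, left) and CACCTG per kb on either strand (right, bars are the square root of the count per kb) in bins of 250 bp by distance from the peak centre (bp), for 296 CpG island members and 585 others. G+C reaches 66.9% and 57.3% just right of the centre, and CACCTG per kb left and right of the centre is 1.176 and 1.21 outside CpG islands and 0.96 and 0.743 on them, a difference that was not tested.

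The rise in G+C was local. In CpG island members it reached 66.9% in the 250 bp right of the centre and was 47.3% at 1000 to 1250 bp. In the other members the same bins held 57.3% and 47.7%. Peaks outside CpG islands thus also stood on a local summit of G+C, though a lower one.

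The E-box CACCTG, searched on both strands of the central 500 bp, was present in 348 members (39.5%, Wilson interval 36.3 to 42.8%) and in 41.4% of all 17435 peaks. It occurred once in 257 members, 2 times in 65 and at least 3 times in 26, with a maximum of 4. Among members it was present in 94 of the 296 on CpG islands (31.8%) and in 254 of the 585 others (43.4%). Against intron peaks, with 45.7%, the difference was -6.17 points (-10.5 to -1.75; odds ratio 0.777, adjusted exact p = 0.0099). That difference was no longer past the threshold without the CpG island members (odds ratio 0.913, adjusted exact p = 0.408) or in a window of 200 bp (0.798, adjusted exact p = 0.0799). The threshold was still passed with an enrichment of at least 5 (0.749, adjusted exact p = 0.0173). The same held with 1 peak kept per 50 kb window (0.799, adjusted exact p = 0.0337). Retrotransposon peaks held it in 50% (odds ratio 0.653, adjusted exact p = 2.93e-07). Promoter peaks held it in 37.8%, a difference of 1.72 points (-1.58 to 5.11, adjusted exact p = 0.417). Members outside CpG islands against all promoter peaks gave an odds ratio of 1.26 (adjusted exact p = 0.009). In each such setting CpG islands were left out of the members alone, while 18% of promoter peaks and 12.2% of intron peaks carry that label. Both sides are therefore unlike. The detailed annotation gives each peak a single name, so these shares need not count every peak on a CpG island. Promoter peaks had a median G+C of 66% and a median ratio of observed to expected CG dinucleotides of 0.788. CpG island members had 65.4% and 0.763. With [CT]N[CT]ACCTG, the longer Zeb1 motif used by the study, the direction against promoter peaks turned (odds ratio 0.819, adjusted exact p = 0.0132). That motif was present in 28.5% of members, 32.7% of promoter peaks and 34.6% of all peaks. Intron peaks held it in 40.9%, a wider gap than for CACCTG (odds ratio 0.577, adjusted exact p = 2.25e-08). Retrotransposon peaks held it in 39% (odds ratio 0.623, adjusted exact p = 6.26e-08). Members outside CpG islands held the longer motif in 31.3%, a share that was not tested.

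Each member was also compared with its own surroundings, 500 bp that begin 1000 bp beyond each edge. CACCTG was present in 35% of the left flanks, with 226 members holding it in the centre alone and 186 in the flank alone (two-sided exact McNemar test, p = 0.0546, adjusted over both flanks 0.0546). It was present in 32.7% of the right flanks, with 238 and 178 such members (exact p = 0.00377, adjusted 0.00753). In windows of 200 bp the ratio on the right was 1.21 and not past the threshold (adjusted exact p = 0.161). On the left it passed when only members with an enrichment of at least 5 were taken (1.29, adjusted exact p = 0.037). The flanks had a median G+C of 46.8%, lower than the 59.8% of the centres. Outside CpG islands the centre held CACCTG in 43.4% and the flanks in 33.5% and 32.0%, and on CpG islands in 31.8%, 37.8% and 34.1%. The difference between these 2 groups was not tested.

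Having the E-box did not go with the strength of the peak. Members with CACCTG had a median enrichment of 5.93 and those without 5.95, and Spearman's rho between the number of CACCTG and enrichment was -0.00644 over the 881. The wider E-box CANNTG, which contains CACCTG, was present in 85.9% of members, 92.4% of intron peaks, 91% of retrotransposon peaks, 79% of promoter peaks and 83.2% of all peaks. The Klf-like motif GGGNGTGG was present in 28.6% of members, 28.7% of promoter peaks, 27.1% of intron peaks, 10.2% of retrotransposon peaks and 25.2% of all peaks. AGNNGGCGC, from the core of the motif of the insulator protein Ctcf, was present in 17.9% of members, 22.5% of promoter peaks, 8.85% of intron peaks, 16.4% of retrotransposon peaks and 19.6% of all peaks, and on CpG islands in 26.7% of members. The octamer ATGCAAAT of Pou factors was present in 20 members (2.27%), 0.942% of intron peaks, 6.28% of retrotransposon peaks, 0.873% of promoter peaks and 1.81% of all peaks. TCAAGGTCA of the orphan receptor Esrrb was present in 10 members (1.1%), 0.753% of intron peaks, 0.378% of retrotransposon peaks, 0.615% of promoter peaks and 0.66% of all peaks. All were searched on both strands of the same 500 bp, and none of these motif shares was tested.

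The label sets limits on position, since peaks within 5 kb of a TSS count as promoter peaks and those in a gene body as intron or exon peaks. Both sides of the assigned gene were therefore not equally open to members, and the split between them is a description. The assigned gene's TSS had the peak centre upstream of it in 525 members (59.6%) and downstream in 356. The closest was 5004 bp from that TSS, at the limit set by the label, the median 30300 bp and the farthest 1085022 bp. Between 20 and 50 kb lay 269 members, more than in any other of the 6 distance ranges used, and 741 (84.1%) were within 100 kb. The median enrichment by range, from near to far, was 5.80, 5.65, 5.80, 6.53, 6.20 and 7.73, the last in 20 members, with a rho of 0.0765 between distance and enrichment over all 881. The gene assigned by the authors was also the one with the nearest TSS among curated RefSeq transcripts for 656 members (74.5%, 71.5 to 77.2%). An assignment names a neighbour, and no target of a member was measured.

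**Figure D4:**
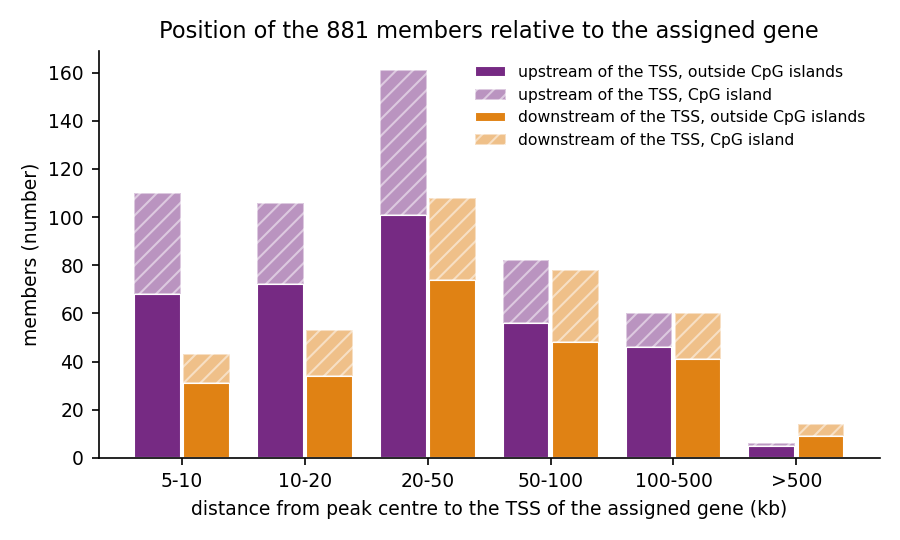
Number of members by distance (kb) between the centre of the peak and the start of its assigned gene, upstream and downstream, with the part on CpG islands hatched. Upstream members are the more numerous below 50 kb, where the label leaves out peaks downstream of a TSS that fall in the gene body.

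The 881 members were assigned to 723 genes, of which 620 had 1 member, 69 had 2, 24 had 3 and 10 had at least 4. Protein-coding genes took 728 members (82.6%) and genes of non-coding RNA 142 (16.1%), against 90.7% and 8.28% of all peaks. The assigned gene also had a promoter peak for 526 members (59.7%, Wilson interval 56.4 to 62.9%), against 70.4% for intron peaks and 34.6% for retrotransposon peaks. By gene, 409 of the 723 had a promoter peak and 314 had none. Of the 565 protein-coding genes with a member, 365 (64.6%, Wilson interval 60.6 to 68.4%) had a promoter peak, against 41.9% of all 21883 protein-coding genes, a difference that was not tested.

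Another peak of the list lay within 50 kb of 610 members (69.2%, Wilson interval 66.1 to 72.2%). The share was 85.7% for intron peaks (odds ratio 0.376, adjusted exact p = 5.53e-18), 33.7% for retrotransposon peaks (4.44, adjusted exact p = 6.32e-71) and 67.8% for promoter peaks (1.07, adjusted exact p = 0.455). With a distance of 10 kb the direction against promoter peaks turned (odds ratio 0.98, adjusted exact p = 0.793), and with 1 peak kept per 50 kb window the comparison passed the threshold (1.4, adjusted exact p = 1.84e-05). Members thus had a neighbour more often than peaks on retrotransposons and less often than intron peaks, and the comparison with promoter peaks changed with the setting. Joined where they were at most 50 kb apart, they formed 727 groups, of which 635 held 1 member. The other 92 groups held 246 members (27.9%), and 15 of them held at least 4.

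The 3 rows with the most members lay on chromosomes 15, 17 and 19. On chromosome 15, 8 members in 72050 bp between Wnt7b, a Wnt ligand, and Mirlet7bhg, the host gene of let-7 microRNAs, had a median enrichment of 7.74, and 3 were CpG islands. The 5 of them assigned to Mirlet7bhg all overlapped the GENCODE transcript Lncppara, and the CpG island at chr15:85660101-85661600 had an enrichment of 20.02 with 46.4 treatment and 4.8 input reads. On chromosome 17, 8 members in 160900 bp beside Lemd2, Mir7214, Mir7217 and Mir7218 had a median of 3.15 and no CpG island. The longest member of all, 8150 bp at chr17:27288801-27296950, was among them, with an enrichment of 3.04. On chromosome 19, 7 members in 119050 bp were assigned to Hif1an and Pax2, with a median of 5.43 and 4 CpG islands. The row on chromosome 15 was therefore stronger than the list's median and the other 2 rows weaker.

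The genes with the most members were Erdr1 and 5730507C01Rik with 7 each, Pax2 with 6, 1700030C10Rik, Mirlet7bhg and Tcf20 with 5 each, and Cxxc5 and Socs3 with 4 each. Lbx1 and Micall2 also had 4, and the tie was settled by summed treatment reads. Pax2, a transcription factor of kidney, ear and midbrain, had its 6 members from 7219 to 86169 bp upstream, at enrichments of 4.45 to 6.8, and 4 were CpG islands. The 5 members of Tcf20, a transcriptional coregulator, lay 5391 to 49041 bp upstream of the RefSeq start, but all 5 overlapped the longer Tcf20 gene of GENCODE, with enrichments of 5.16 to 10.2. Cxxc5, a CXXC zinc finger protein of Wnt signalling, had 4 members with enrichments of 3.55 to 8.7. Those of Socs3, the feedback inhibitor of LIF signalling through Stat3, had enrichments of 3.35 to 6.51 and lay 6366 to 45791 bp downstream of its TSS.

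On chromosome 12, the 12 members of the non-coding genes 5730507C01Rik and 1700030C10Rik were spread over 2821 kb. Of these, 7 were centred within 500 bp of a GENCODE start, mostly of a pseudogene, and the farthest of the 7 was 261 bp from it. All 6 CpG islands among the 12 were in this group of 7. Both genes are the authors' assignments. The starts under the peaks belong to other loci such as Gm40848, a processed pseudogene 20 bp from the centre of chr12:18386651-18388900. That member had 73.8 treatment and 17.8 input reads, at an enrichment of 8.98. The member of 1700030C10Rik with the most reads, at chr12:20311251-20313900, had 144 treatment and 39.1 input reads and an enrichment of 7.76.

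The 10 members with the highest enrichment, 21 to 45.65, had few input reads, from 1.5 to 8.33 with a median of 3.5. The first was chr3:49821801-49823550, 65359 bp upstream of Pcdh18, a protocadherin of cell adhesion, with 36.5 treatment and 1.5 input reads and an enrichment of 45.65. Its treatment reads were thus below the median member's 38, and 72.0% of its central 500 bp was soft-masked, the mark that the assembly puts on repeats. A pair of Erdr1 members on CpG islands of chromosome Y, near the pseudoautosomal end, had enrichments of 44.12 and 27.56. The stronger, at chrY:90824651-90827150, had 137.2 treatment reads and 7 input reads. Zfy1, a zinc finger gene of the Y chromosome, was the assigned gene 538134 bp away from a member with 62.5 treatment and 4 input reads and an enrichment of 33.7. Pls3, which encodes an actin-bundling plastin, had a member 91230 bp upstream with 38.5 treatment and 2.5 input reads and an enrichment of 29.5. Ddx18, an RNA helicase of ribosome assembly, was the neighbour at 789220 bp of a ribosomal repeat with 92 treatment and 8.33 input reads and an enrichment of 24.9. The others were assigned to Gm3264 (22.9) and 1700030C10Rik (21.8), to Wnt4 and to Bcor.

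Wnt4 encodes a signalling ligand of kidney and gonad development. Its member at chr4:137265101-137266650 lay 11760 bp upstream with 38.5 treatment and 4 input reads, an enrichment of 21.95. Another Wnt4 member, 23590 bp downstream, had 50 treatment and 11.75 input reads and an enrichment of 8.075. Bcor encodes a corepressor of the variant Polycomb complex that contains Kdm2b. Its member, the CpG island at chrX:12005151-12008100, lay 73928 bp downstream of the TSS with 68 treatment and 6.5 input reads, an enrichment of 21. Of the 10 highest, 5 lay on chromosomes X and Y, which held 18 of the 881 members. Members on X had 7.05 input reads per kb at the median, those on Y 7.77 and those on autosomes 7.81. The lower quartiles were further apart, at 3.19, 4.03 and 6.15 in the same order. The 15 members with under 5 input reads had enrichments from 10.95 to 45.65, with a median of 35.4 treatment reads. No peak of the list has under 20 treatment reads. The other 866 had a median enrichment of 5.86, and 83 of them reached 10. How far counting error in the input moved the ranking by enrichment was not tested.

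Ranked by treatment reads, other members came first. The most, 629.7, fell on a major satellite at chr11:3099801-3105350 beside the pseudogene Pisd-ps1, which also had 475 input reads and an enrichment of 2.93. A CpG island beside the chemokine receptor gene Ccr1, at chr9:123923901-123926550, had 492.2 treatment and 143 input reads and an enrichment of 7.52. A member assigned to 4930467E23Rik had 249.3 and 96, an enrichment of 5.81. The Erdr1 CpG island at chrY:90738351-90745100, 6750 bp long, had 233.7 and 54.8, an enrichment of 11.1. These 4 had more input reads than any of the 10 most enriched members. The other members named for length were at Fgfr4, a receptor for fibroblast growth factors (5550 bp, enrichment 3.38), and at Gm3336 (5500 bp, 6.96).

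Members were placed beside genes of 5 lists, which cover pluripotency, mesendoderm, cardiovascular, epithelial and neural genes. At least 1 member was assigned to 2.58% of the 21883 protein-coding genes, and 41.9% of them had a promoter peak. The share of listed genes was 3 of 30 for pluripotency, 7 of 30 for mesendoderm, 8 of 30 for cardiovascular, 3 of 31 for epithelial genes and the epithelial to mesenchymal transition (EMT), and 8 of 32 for neural genes. The EMT list holds 26 protein-coding genes beside microRNA genes, so its share is not of the same kind as the 2.58%. The length of intergenic sequence around each gene was not taken into account, and the counts were not tested. By the nearest curated RefSeq TSS in place of the authors' assignment, the cardiovascular count was 5, the epithelial and EMT count 2 and the neural count 7, with the other 2 lists at 3 and 7 as before.

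Of the pluripotency genes, Klf4, Gbx2 and Socs3 had 8 members, with a median enrichment of 6.25. Klf4 encodes a reprogramming factor that LIF maintains in naive cells. Its 3 members were all CpG islands, with enrichments of 7.95 at 52000 bp downstream, 7.94 at 119000 bp upstream and 5.19 at 17600 bp downstream. The first holds the E-box at its centre printed above, and had 46 treatment and 11.5 input reads. Gbx2, a homeobox gene downstream of LIF and Stat3, had a member 9999 bp upstream with an enrichment of 6.74. Promoter peaks were present at 19 of the 30 genes of the list (41.9% over all protein-coding genes).

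The mesendoderm genes had 11 members with a median of 6.9. Foxa1, a pioneer factor of endoderm, had members 10921 and 7171 bp downstream with enrichments of 10.6 and 10.4, the latter a CpG island. Wnt7b had 3, of which the CpG island 52954 bp upstream had the highest enrichment, 7.3. Tbx4, the T-box gene of hindlimb and lung, had 1 member 13588 bp upstream with an enrichment of 6.95. The others were assigned to Gsc, Evx1, Sox17 and Cdx2, at 3.9 to 6.9. Promoter peaks were present at 26 of the 30 genes (41.9% over all protein-coding genes). The paper singled out Wnt7b and Tbx4 partly because Zeb1 was found at their TSS in these data. Neither this share nor the 7 of 30 genes with a member is therefore independent of the peak list.

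The cardiovascular genes had 13 members with a median of 7.1, of which 5 were CpG islands. Tbx20, a T-box factor of the heart, had CpG island members 6847 and 178472 bp upstream, at enrichments of 11.8 and 8.6. The 3 members of Nr2f2 had enrichments of 10.95, 9.2 and 4.59, the first 258704 bp upstream with 4.5 input reads. Hand2, a factor of the second heart field and limb, also had 3, at 4.35 to 5.6, all downstream. Prox1, Flt1, Cdh5, Irx4 and Tbx5 had 1 each, from 8 at Prox1, a factor of lymphatic vessels, to 3.45 at Tbx5. Promoter peaks were present at 22 of the 30 genes (41.9% over all protein-coding genes).

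Neural genes had 14 members, 9 of them CpG islands, with a median of 5.5. Irx5, an Iroquois homeobox gene, had a CpG island member 102704 bp downstream with an enrichment of 9.67, centred on the E-box printed above. Pax3, a paired-box factor of neural crest and muscle, had one 19964 bp upstream with 88.6 treatment and 19 input reads and an enrichment of 9.64. Otx1, a forebrain factor, had one 8376 bp downstream with an enrichment of 8.27. Neurog1, a proneural factor, had one at 8.02, and the remaining members, of Pax2, Lmx1a, Lhx2 and Neurog2, were at 4.45 to 6.8. Promoter peaks were present at 31 of the 32 genes, against 41.9% of all protein-coding genes.

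Of the epithelial and EMT list, which holds known Zeb1 targets, 3 genes had 5 members, with a median of 8.12. Pard6b, a polarity protein of epithelial cells, had 3, with enrichments of 9.23 at 25971 bp downstream, 8.59 at 30579 bp upstream and 8.12 at 36046 bp downstream. Grhl2, an activator of epithelial genes that Zeb1 represses in other cells, had a CpG island member 97386 bp upstream with an enrichment of 6.6. The Mir200b locus, which encodes a microRNA that targets Zeb1, had a CpG island member 22175 bp upstream of the annotated microRNA with 45.3 treatment and 18.7 input reads and an enrichment of 5.17. Promoter peaks were present at 24 of the 31 genes of the list (41.9% over all protein-coding genes).

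**Figure D5:**
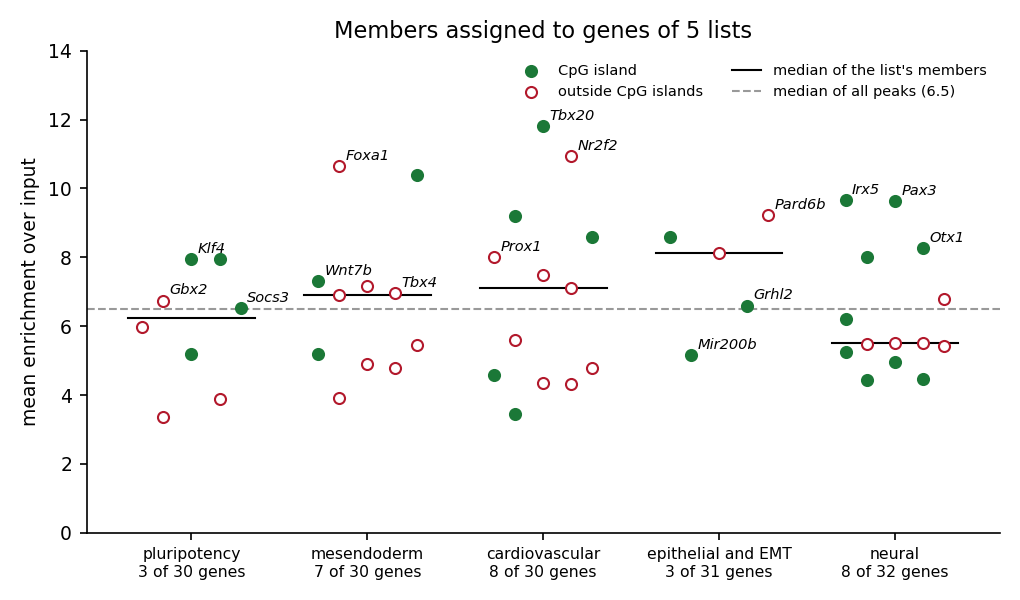
Mean enrichment over input of each member assigned to a gene of the 5 lists, filled for CpG islands and open for others, with the median of each list (line) and of all peaks (6.5, dashed). The list medians run from 5.5 (neural, with 6 of 14 members at Pax2) to 8.12 (epithelial and EMT, with 3 of 5 at Pard6b).

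By chromosome, members were densest on chromosome 15, with 58 members or 0.557 per Mb, and on chromosome 8, with 70 or 0.541 per Mb. Chromosome 3 held 16 members (0.1 per Mb) and chromosome X 6 (0.0351 per Mb). Chromosome 12 held 6.02% of members (Wilson interval 4.63 to 7.79%) and 3.63% of all peaks, and chromosome 3 held 1.82% and 4.07%. Chromosome Y held 12 members, 1.36% (0.781 to 2.37%), and 0.184% of all peaks, and 7 of the 12 were assigned to Erdr1. The density by chromosome was not tested.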

How the data were processed

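The authors checked reads with FastQC 0.11.2, trimmed them with Reaper, aligned them to mm10 with STAR 2.4.2a and took out duplicates with Picard 1.136. Peaks came from PeakRanger, with a minimum of 20 treatment reads, an enrichment of 2 and a limit on the false discovery rate. The paper states that kept peaks were present in at least 2 replicates. It also states that peaks on regions blacklisted by ENCODE, satellite repeats among them, were taken out. The list still holds 9 members on satellites. The authors unified the peaks and annotated them with HOMER 4.7. The signal in the deposited list is a read count averaged by the authors, and the enrichment is the authors' averaged ratio. Since the p-value deposited by the authors equals 0 throughout, it served no purpose here. The averages were taken as given, with no filter and no scaling. Members and gene lists were chosen with earlier results of these data known.

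Sequence came from GRCm38.p6. The transcript named by the list was found for 860 members, of which 93.3% lay within 100 bp of the deposited distance. A positive distance is downstream. Classes were compared by two-sided Fisher's exact tests, and centres with flanks by exact McNemar tests. Shares carry 95% Wilson intervals, which cover counting error alone, and the interval of the median comes from order statistics. Named are the genes of the 10 members with the highest enrichment, of the 5 with the most treatment reads, of the 5 longest, the 8 genes with the most members and up to 3 members a gene list. Other genes of the lists, genes beside rows of members, GENCODE loci and the printed E-box sites were named after their values were seen. Software was SciPy 1.17.1, NumPy 2.4.6, pysam 0.24.0, pandas 2.3.3 and matplotlib 3.10.9 under Python 3.11.15, with genes from GENCODE M21.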

Additional observations from a re-analysis of the deposited data

How the results depend on the processing

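Of 57 tested values under alternatives, 42 kept their direction and side of the threshold. All length comparisons did so under an enrichment of at least 5, 1 peak per 50 kb window and members outside CpG islands. Outside CpG islands 585 members remained, with a median enrichment of 5.5, and the odds ratios were 0.824 against intron peaks (reversed) and 0.737 against retrotransposon peaks (now past the threshold) for enrichment, and 0.913 against intron peaks (no longer past it) and 1.26 against promoter peaks (now past it) for CACCTG. An enrichment of at least 5, a filter on the value compared, gave a median of 7.08 and odds ratios of 0.362 against retrotransposon peaks and 0.881 against promoter peaks. For CACCTG it gave a ratio of 1.29 of centre to left flank. Treatment reads per kb gave 3.02 against intron peaks and 0.732 against retrotransposon peaks. In 200 bp windows CACCTG gave 0.798 against intron peaks and 1.21 against the right flank, neither past the threshold. Reversed were also enrichment against retrotransposon peaks with at least 5 input reads (1.13, chosen after seeing the data), [CT]N[CT]ACCTG against promoter peaks (0.819) and neighbours within 10 kb against promoter peaks (0.98), which was 1.4 with 1 peak per 50 kb window. In each case the cause was not tested. No analysis paired by library was possible because the list holds averages only, and for the same reason no library could be left out. The list gives no aligned reads per library, and few input reads limit an enrichment.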
